A study of Ovis aries with 15 samples.

Results

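The 4 genes examined here, LRP2, CUBN, AMN and DAB2, encode the protein endocytosis receptors of the kidney proximal tubule and the adaptor that works with them. They were taken by name as the rows with these symbols, 4 of 25592 genes listed, and all 4 passed the filter on low values, as did 13162 genes in all. LRP2 encodes megalin, a very large membrane receptor of the LDL receptor family that binds filtered albumin, vitamin-binding proteins, hormones and many drugs. CUBN encodes cubilin, a peripheral receptor with no membrane span of its own, and AMN encodes amnionless, the membrane partner that carries cubilin to the apical surface. DAB2 encodes disabled-2, a clathrin adaptor that links the tail of megalin to the endocytic machinery. Receptors with bound ligand enter clathrin-coated pits at the brush border, release the ligand in acidified endosomes and return to the surface, while the ligand goes on to lysosomes or is passed back to the blood. Loss of this uptake is known to give low-molecular-weight proteinuria.

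The study asked whether curcumin, a plant phenolic, eases the damage done by aflatoxin B1, a toxin of Aspergillus moulds, in 18 male Dorper × Small-tailed Han sheep aged 4 months, with 6 sheep in each group and 2 sheep to a pen. For 21 days the CON group ate a total mixed ration, AFB1 sheep had aflatoxin B1 added at 500 μg/kg dry matter, and AFB1_CUR sheep had that dose of toxin plus curcumin at 800 mg/kg dry matter. Kidney mRNA of 5 animals per group was sequenced, 1 library each, with total counts of 50255295 to 68747047, and no group received curcumin alone. Whole kidney pieces were used, so fewer cells of a type and less RNA per cell cannot be told apart in any value given here.

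AFB1 replicate 1 stood apart from the other 14 libraries and is shown on its own throughout. Its 15 hepatocyte marker genes had a mean log2(FPKM + 1) of 10.9, against 1.48 to 3.04 in the other 14, where FPKM is the number of sequenced fragments scaled to transcript length and library size. Albumin (ALB), the main liver secretory protein, stood at 25681 FPKM in it, while the loop of Henle marker UMOD was at 0.108 FPKM and the proximal phosphate transporter SLC34A1 at 0.509 FPKM, each below every other library. Groups below are 5 CON, 4 AFB1 and 5 AFB1_CUR libraries unless all 15 are named. In those 14 libraries the proximal tubule label held: 12 of 14 listed marker genes were found, none was at 0 in any library, and SLC34A1 ran from 53.0 to 346 FPKM.

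In AFB1 replicate 1 the members did not fall alike. LRP2 had 8 counts there (0.00799 FPKM) and CUBN 12 counts (0.0175 FPKM), against at least 27457 and 16200 counts in each of the other libraries. DAB2 was at 3.85 FPKM, which is 2.36% of its median over the other 14. AMN kept 11053 counts and 43.1 FPKM, 42.2% of its median elsewhere, and in that library it held rank 1016 of 13162 genes by FPKM, against ranks 12830 for LRP2 and 12805 for CUBN. AMN lies on chromosome 18 at 65246329 to 65259429 on the plus strand in assembly ARS-UI_Ramb_v3.0, and its last 955 bases, 7.29% of its span, overlap the end of CDC42BPB (65258475 to 65361499), a kinase gene on the minus strand. CDC42BPB was at 2.73 FPKM in AFB1 replicate 1 and at 4.73 to 6.57 in the others. Its gene model is longer, and in counts it stood at 3971 against 11053 for AMN in AFB1 replicate 1 and at 8058 against 13241 in AFB1 replicate 2. The strand setting of the counting is not given in the sources used here, so reads from the overlap cannot be assigned to one of these genes with certainty.

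The other 3 genes overlapped no other annotated gene. LRP2 spans chromosome 2 from 140096304 to 140279121 on the plus strand, CUBN spans chromosome 13 from 30662895 to 30935506 on the minus strand, and DAB2 spans chromosome 16 from 35183140 to 35240269 on the plus strand, all in the same assembly. Coordinates are those of the deposited table, and they equalled the RefSeq gene records of that assembly for 24848 of the 24947 genes that could be matched by name.

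Levels of the receptors were high and uneven. LRP2 stood at 54.1, 55.0, 52.4, 68.1 and 134 FPKM in CON replicates 1 to 5. In AFB1 replicates 2 to 5 it stood at 56.0, 32.7, 30.2 and 102 FPKM, and in AFB1_CUR replicates 1 to 5 at 95.1, 32.7, 57.7, 83.1 and 66.7 FPKM. CON replicate 5 and AFB1 replicate 5 were each the highest of their group, the lowest AFB1 libraries lay below every CON library, and the ranges of the 3 groups overlapped.

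CUBN, the receptor for the intrinsic factor and vitamin B12 complex and for albumin, stood at 73.7, 46.2, 43.2, 83.0 and 137 FPKM in CON. It stood at 44.8, 32.3, 30.6 and 123 FPKM in AFB1 and at 103, 23.5, 51.0, 83.4 and 73.3 FPKM in AFB1_CUR. Replicate 5 was again the top library of both CON and AFB1, AFB1_CUR replicate 2 was the lowest of all 14, and the 3 groups overlapped.

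AMN, the chaperone-like partner of cubilin, was steadier. It stood at 130, 104, 100, 130 and 142 FPKM in CON, at 54.0, 90.4, 67.4 and 115 FPKM in AFB1, and at 98.6, 62.2, 91.9, 127 and 110 FPKM in AFB1_CUR. In AFB1, 3 of 4 libraries lay below the lowest CON library, and only replicate 5 fell inside the CON range.

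DAB2, the adaptor, was the most abundant of the 4. It stood at 149, 140, 194, 225 and 203 FPKM in CON, at 93.9, 136, 138 and 245 FPKM in AFB1, and at 188, 104, 177, 194 and 140 FPKM in AFB1_CUR. AFB1 replicate 5 was the highest and AFB1 replicate 2 the lowest of all 14 libraries, so the AFB1 group enclosed the whole range of the other 2 groups.

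**Figure D1:**
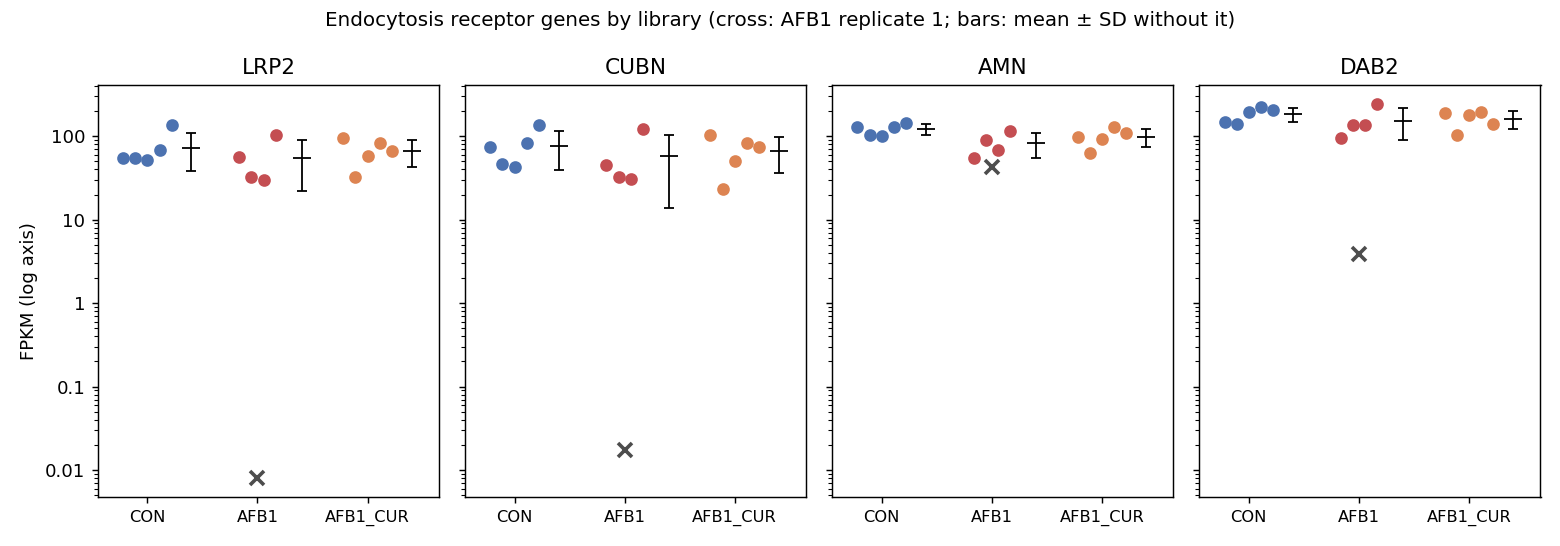
FPKM of LRP2, CUBN, AMN and DAB2 on a log axis, 1 point per library in CON, AFB1 and AFB1_CUR, with bars for the mean ± SD of each group without AFB1 replicate 1, which is drawn as a cross. The cross lies far below the other points for LRP2 and CUBN (0.00799 and 0.0175 FPKM), lower by less for DAB2 (3.85 FPKM) and just below the AFB1 points for AMN (43.1 FPKM).

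On this per-length scale DAB2 was the highest member in 14 of 14 libraries. Its CON mean was 182.5 ± 36.4 FPKM (SD, n = 5), followed by AMN at 121 ± 18.3, CUBN at 76.6 ± 37.8 and LRP2 at 72.8 ± 35 FPKM (SD, n = 5 each). AMN exceeded LRP2 in all but 1 library and CUBN in all but 2. CUBN and LRP2, the neighbours at the low end, did not separate: LRP2 was the higher of them in 6 of 14 libraries. The order DAB2, AMN, CUBN, LRP2 held in 6 libraries and the order DAB2, AMN, LRP2, CUBN in 5. Among 13162 genes ranked by FPKM, DAB2 held ranks 204 to 469 over the 14 libraries, AMN 352 to 891, LRP2 382 to 1723 and CUBN 372 to 2528.

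Among the 5 CON libraries the coefficient of variation was 48.1% for LRP2 and 49.4% for CUBN, higher than in 93.2% and 93.7% of tested genes, whose median was 17.3%. AMN (15.1%) and DAB2 (19.9%) lay near that median. For LRP2 this rested on CON replicate 5: without it the coefficients were 12.6% for LRP2, 32.2% for CUBN, 13.9% for AMN and 22.4% for DAB2, against a median of 14.7%, so that LRP2 was the lowest of the 4. The biological coefficient of variation estimated by edgeR over the 14 libraries was 45.5% for LRP2, 54% for CUBN, 29.1% for AMN and 33% for DAB2, against a median of 21.5%.

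LRP2 and CUBN varied together. Over the 14 libraries LRP2 ran over a 4.46-fold and CUBN over a 5.83-fold range of FPKM, while the LRP2 to CUBN ratio stayed between 0.734 and 1.39 with a median of 0.991. The SD of that log2 ratio was 0.261, against 0.637 for log2 LRP2 and 0.779 for log2 CUBN alone. The AMN to DAB2 ratio was similarly narrow, 0.471 to 0.870 with an SD of 0.270 on the log2 scale. These 2 genes also varied less alone, with an SD of 0.424 for log2 AMN and 0.406 for log2 DAB2. Ratios that crossed these pairs were wider, with SDs of 0.475 to 0.556. In AFB1 replicate 1 the LRP2 to CUBN ratio was 0.458, from 8 and 12 counts, and the AMN to DAB2 ratio was 11.2.

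The correlation of log2(FPKM + 1) between LRP2 and CUBN was r = 0.952 over 14 libraries, with Spearman's rho of 0.938 (permutation test, 100000 resamples, two-sided p = 1e-05 for each, the smallest these can give, and adjusted p = 6e-05 over 6 pairs). Without the 2 libraries farthest from the median of LRP2 it was 0.941, and with group means removed 0.951. For the other 5 pairs r ran from 0.660 for LRP2 and AMN (rho 0.626, permutation p = 0.00934 and p = 0.0184, adjusted p = 0.00934 and 0.0184) to 0.788 for AMN and DAB2 (rho 0.776, permutation p = 0.00083 and 0.00176, adjusted p = 0.00249 and 0.00304). Between these lay LRP2 and DAB2 (r = 0.667, rho 0.692, permutation p = 0.00916 and p = 0.00754), CUBN and DAB2 (r = 0.731, rho 0.763, permutation p = 0.00325 and p = 0.00203) and CUBN and AMN (r = 0.765, rho 0.780, permutation p = 0.00128 and p = 0.00161), with adjusted p for r of 0.00934, 0.00487 and 0.00256 and for rho of 0.00905, 0.00304 and 0.00304. Without the 2 farthest libraries LRP2 and AMN fell to r = 0.508 (permutation p = 0.0897) and AMN and DAB2 to r = 0.519 (permutation p = 0.0819), so these 2 relations rested on those libraries. They were AFB1 replicate 4 and CON replicate 5 for the first pair, and AFB1 replicate 2 and AFB1_CUR replicate 2 for the second. The other 3 pairs kept r of 0.637 to 0.674 (permutation p = 0.0158 to 0.0253). The points of each pair share a library and its scaling.

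**Figure D2:**
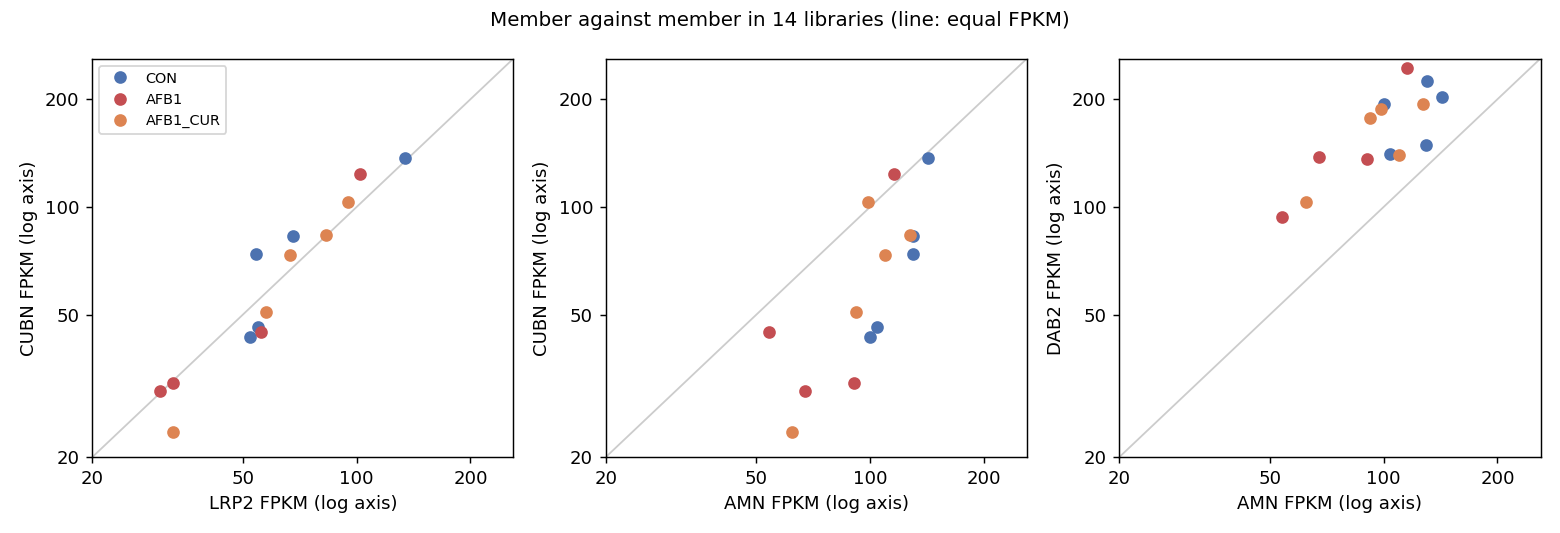
CUBN against LRP2, CUBN against AMN and DAB2 against AMN, each as FPKM on log axes, with 1 point per library for 5 CON, 4 AFB1 and 5 AFB1_CUR libraries and a line of equal FPKM. The LRP2 and CUBN points run along the line (ratio 0.734 to 1.39), while all DAB2 points lie above it.

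The genes whose log2 counts, scaled to library size, followed each member most closely over the same 14 libraries were then listed, up to 5 per member, as a description. For LRP2 these were GGCX (r = 0.971), the vitamin K-dependent carboxylase, the glutamate transporter SLC1A3 (0.967), BEND7 (0.963), ATXN2 (0.956) and CLRN3 (0.956). For CUBN they were SLC22A4 (0.971), an organic cation and ergothioneine transporter, ENPP6 (0.964), CLRN3 (0.963), the ketone body enzyme OXCT1 (0.961) and the monocarboxylate transporter SLC5A12 (0.958). CUBN ranked 4 among 13161 genes by likeness to LRP2 (r = 0.962 on this scale), and LRP2 ranked 4 by likeness to CUBN.

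AMN was followed by DECR2 (0.957), an enzyme of peroxisomal fatty acid oxidation, LRP4 (0.956), the zinc transporter SLC39A5 (0.951) and LRRC51 (0.950). DAB2 was followed most closely by CLCN5 (0.955), the endosomal chloride and proton exchanger that is mutated in Dent disease, then by CIPC (0.953), the dopamine-forming enzyme DDC (0.947), HOXA7 (0.946) and the Shroom2 gene LOC101119619 (0.946). CLCN5 is itself part of the endocytic route: it stood at 21.8 to 33.0 FPKM in CON, 15.3 to 47.4 in AFB1 and 13.5 to 35.9 in AFB1_CUR, with AFB1 replicate 5 again the highest. The median r of all tested genes with a member lay between -0.033 and -0.022.

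The members also followed the amount of proximal tubule signal in a library, a relation chosen after their values were seen. A score, the mean log2(FPKM + 1) of 12 proximal tubule genes that include none of the members, correlated with LRP2 at r = 0.834, CUBN at 0.907, AMN at 0.891 and DAB2 at 0.876 over 14 libraries (permutation p = 0.00023, p = 1e-05, p = 2e-05 and p = 4e-05, adjusted over 4 relations p = 0.00023, 4e-05, 4e-05 and 5.33e-05). Spearman's rho was 0.864, 0.960, 0.868 and 0.859 (permutation p = 0.00012, 1e-05, 8e-05 and 0.0002, adjusted p = 0.00016, 4e-05, 0.00016 and 0.0002). Without the 2 farthest libraries r was 0.753, 0.838, 0.796 and 0.761, and with group means removed 0.835, 0.912, 0.881 and 0.862. Single tubule genes differed in this: DAB2 followed SLC5A2, the glucose transporter SGLT2, at r = 0.917 and SLC34A1 at 0.118 on the scale of log2 scaled counts.

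The score itself ranged from 7.41 to 8.31 in CON, from 6.77 to 8.03 in AFB1 and from 6.62 to 7.93 in AFB1_CUR. CON replicate 5 and AFB1 replicate 5 had the highest scores of their groups and AFB1_CUR replicate 2 had the lowest of all 14, the same libraries that held the extremes of CUBN.

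**Figure D3:**
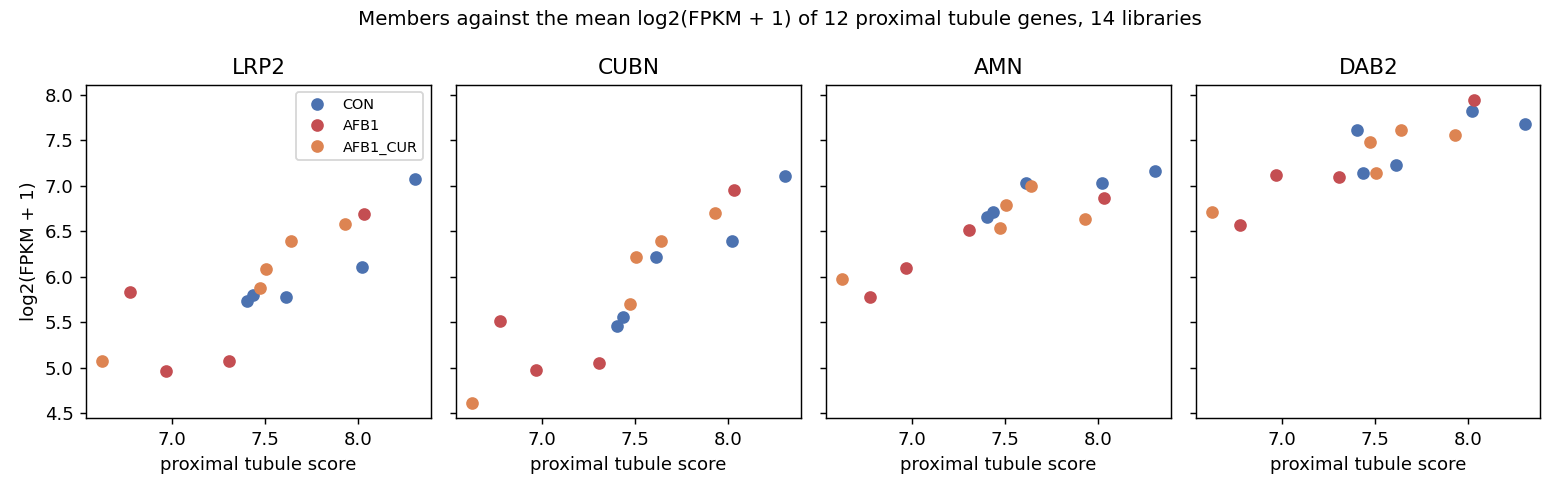
Log2(FPKM + 1) of each member against the proximal tubule score (mean log2(FPKM + 1) of 12 marker genes), 1 point per library in 5 CON, 4 AFB1 and 5 AFB1_CUR libraries. In all 4 panels the level rises with the score (r = 0.834 to 0.907), and the AFB1 points spread from 6.77 to 8.03 on the score axis.

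The comparison of AFB1 with CON asks what the toxin did to these genes. All 4 estimates were lower in AFB1, and none passed the call, an unadjusted p under 0.05 with a fold above 1.5 in edgeR's quasi-likelihood test. These limits on p and fold are the study's, which screened with DESeq2, while the test is edgeR's. AMN had the largest difference, -0.55 on the log2 scale (SE 0.27, 95% interval -1.14 to 0.03, edgeR adjusted p = 0.957). LRP2 differed by -0.37 (SE 0.45, interval -1.33 to 0.59), CUBN by -0.37 (SE 0.54, interval -1.52 to 0.78) and DAB2 by -0.23 (SE 0.31, interval -0.90 to 0.44), with edgeR adjusted p of 0.965, 0.972 and 0.972. Exact permutation tests on log2 FPKM, two-sided and added after the values were seen, gave p = 0.333 for LRP2, 0.349 for CUBN, 0.0397 for AMN and 0.317 for DAB2, where the smallest possible p was 0.00794. They are 4 of 12 such tests over the 3 comparisons and are not adjusted. Of all tested genes 1.76% were called in this comparison, and their median log2 difference was 0.02. At an adjusted p under 0.05 edgeR called 0 genes (0%), 664 had an unadjusted p under 0.05, and DESeq2 gave 17 at an adjusted p under 0.05.

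The calls of LRP2, CUBN and DAB2 turned on AFB1 replicate 5, and that of AMN did so in this edgeR fit. Without it the AFB1 group held 3 libraries, and edgeR gave -0.95 ± 0.42 for LRP2, -1.16 ± 0.49 for CUBN, -0.83 ± 0.26 for AMN and -0.62 ± 0.28 for DAB2 against CON (estimate ± SE), so all 4 were called lower. In that setting 3.48% of all genes were called, and 1.85% of all genes were called lower. The edgeR adjusted p of the members stayed at 0.715 to 0.721. AFB1 replicate 5 held the highest AFB1 value of every member, so leaving it out lowers the group by construction, and these calls are no independent support for a lower level. AFB1 replicate 5 also had the highest proximal tubule score of its group (8.03, against 6.77 to 7.31 in the other 3), and the part of that in the difference was not tested. CON replicate 5 bore on the size for the large receptors: without it LRP2 differed by -0.03 and CUBN by -0.06.

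AMN was also called lower in 3 alternatives that kept AFB1 replicate 5. These were limma on log2(FPKM + 1) and on log2(FPKM + 0.1), both with -0.61, and edgeR with all 15 libraries, with -0.60. They called 0.501%, 1.08% and 1% of all genes lower. The fit with all 15 libraries adds AFB1 replicate 1, whose AMN lay below every other library, which lowers the AFB1 group by construction. Both limma fits use the same FPKM values, so these calls are no independent support for a lower level. With the proximal tubule score added to the edgeR fit, an alternative added after the values were seen, the AFB1 minus CON estimates were 0.23 for LRP2, 0.35 for CUBN, -0.21 for AMN and 0.11 for DAB2, and none was called. The score was measured after feeding, and all 12 of its genes had lower estimates in AFB1. This fit therefore takes out any difference that the members share with those genes, whatever its origin.

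AFB1_CUR against AFB1 asks what curcumin added to the toxin changed. LRP2 differed by 0.21 (interval -0.75 to 1.16), CUBN by 0.13 (interval -1.02 to 1.27), AMN by 0.19 (interval -0.40 to 0.77) and DAB2 by -0.01 (interval -0.68 to 0.65), all with an edgeR adjusted p of 1. Exact permutation tests gave p = 0.437, 0.619, 0.341 and 0.706. None of the 4 was called, where 0.935% of all genes were. The sign of the DAB2 and CUBN estimates turned under several alternatives, and without AFB1 replicate 5 the values were 0.78, 0.92, 0.46 and 0.38, none of them called. By edgeR 0 genes passed the adjusted threshold here, 303 had an unadjusted p under 0.05, and DESeq2 gave 3.

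AFB1_CUR against CON compares toxin and curcumin together with the plain ration and shares its samples with both other comparisons. The estimates were -0.17 for LRP2 (interval -1.06 to 0.73), -0.24 for CUBN (interval -1.32 to 0.83), -0.37 for AMN (interval -0.92 to 0.18) and -0.24 for DAB2 (interval -0.87 to 0.39). Exact permutation tests gave p = 0.802, 0.659, 0.119 and 0.365, and edgeR adjusted p was 0.945, 0.936, 0.829 and 0.887. None of the 4 was called, against 1.63% of all genes. By edgeR 0 genes passed the adjusted threshold and 723 had an unadjusted p under 0.05, while DESeq2 gave 1. In every comparison the intervals for LRP2 and CUBN reached a 1.5-fold difference in both directions, so a change of that size was not detectable for the large receptors at this spread.

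**Figure D4:**
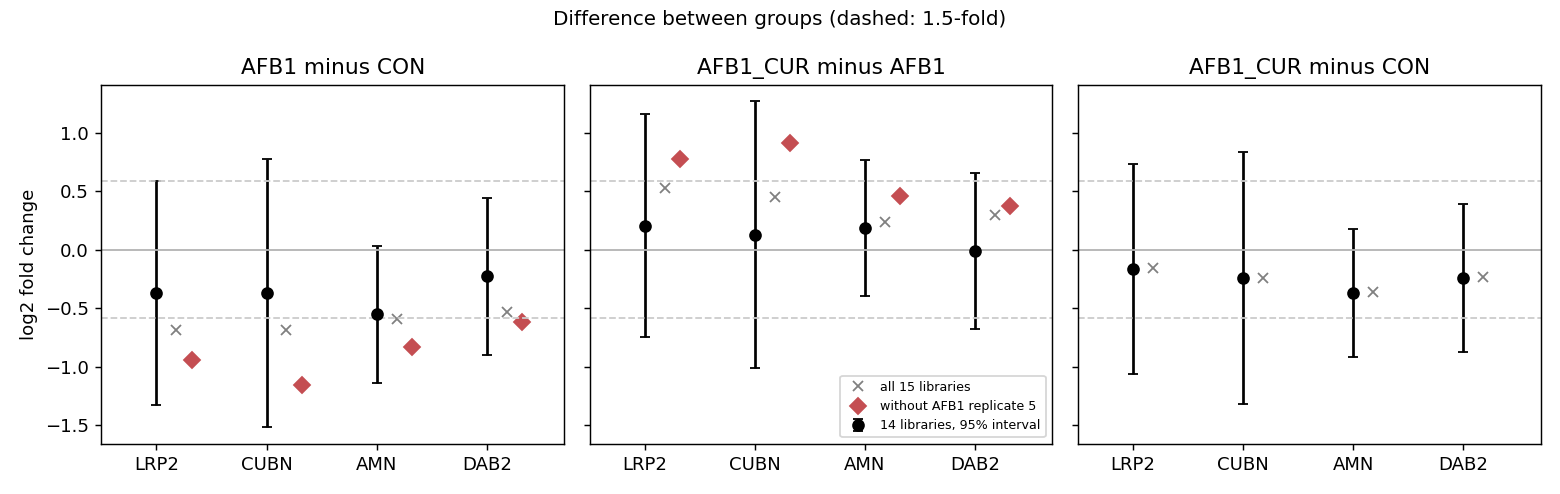
Log2 fold change of each member in the 3 comparisons by edgeR, with black points and 95% intervals for 14 libraries, crosses for all 15 libraries and red diamonds for the fit without AFB1 replicate 5. All black intervals cross 0, and the diamonds in AFB1 minus CON lie at -0.62 to -1.16, past the dashed 1.5-fold line.

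The balance between members was compared within libraries by exact permutation tests, two-sided, on log2 FPKM ratios. Of 18 tests, 6 ratios in 3 comparisons, none reached an adjusted p under 0.05. The smallest p belonged to AMN to DAB2 in AFB1 against CON, where the log2 ratio was -0.88 ± 0.23 (SD, n = 4) against -0.58 ± 0.30 (SD, n = 5), an AMN to DAB2 ratio 0.813 times that of CON (exact permutation p = 0.143, adjusted p = 0.955, smallest possible p 0.00794). The LRP2 to CUBN ratio in AFB1 was 1.04 times that in CON (exact permutation p = 0.738).

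The rest of the endocytic route was followed in 8 lists of 75 genes, of which 69 passed the filter. One gene of the 69 was called in AFB1 against CON (1.45%, against 1.76% of all genes) and 0 of 69 in each comparison with AFB1_CUR. The median log2 difference over the 69 genes was 0.0004, -0.02 and -0.08 in AFB1 minus CON, AFB1_CUR minus AFB1 and AFB1_CUR minus CON.

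That gene was GC, vitamin D-binding protein, a ligand that megalin takes up together with the bound vitamin. It stood at 6.84, 10.8, 19.5, 9.42 and 12.9 FPKM in CON, at 12.7, 19.9, 26.5 and 37.4 in AFB1, and at 14.5, 5.29, 12.7, 30.6 and 7.73 in AFB1_CUR. The AFB1 libraries lay high but overlapped CON, and GC was higher in AFB1 by 1.06 on the log2 scale (edgeR adjusted p = 0.957). The call was lost in 7 of the 9 fits that left out 1 library of the groups compared, with values from 0.70 without AFB1 replicate 5 to 1.31. GC is mostly a liver product and stood at 584 FPKM in AFB1 replicate 1. ALB stood at 23.9, 11.8, 0.215 and 0.0443 FPKM in AFB1 replicates 2 to 5, at most 4.48 FPKM in CON and at most 1.08 FPKM in AFB1_CUR. It was called lower in AFB1_CUR against AFB1 (-3.75, edgeR adjusted p = 1). The ALB call held in 13 of 18 alternatives, and 1 of those that lost it was the fit without AFB1 replicate 2 (-2.63). Of 11 hepatocyte markers tested, 6 estimates were higher and 5 lower in AFB1 against CON (median 0.02, 0 called), 10 were lower in AFB1_CUR against AFB1 (median -0.39, ALB alone called), and 8 were lower in AFB1_CUR against CON (median -0.38, 0 called). The part of liver RNA in the GC difference was not tested.

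Among adaptors and chaperones 8 of 8 genes were tested and 0 called in any comparison. LRPAP1, the endoplasmic reticulum chaperone known as RAP that keeps new megalin from binding ligand early, averaged 125 ± 16.8 FPKM in CON (SD, n = 5), 104 ± 14 in AFB1 (n = 4) and 109 ± 12.9 in AFB1_CUR (n = 5). Its log2 difference of AFB1 from CON was -0.27 (edgeR adjusted p = 0.957). GIPC1, which ties megalin to the motor MYO6, differed by 0.03, and MYO6 by -0.14. GIPC1 differed by -0.27 in AFB1_CUR against AFB1 (edgeR adjusted p = 1) and by -0.25 against CON (edgeR adjusted p = 0.823), each past the unadjusted threshold but under a 1.5-fold change. APPL1, an endosomal adaptor, differed in the same way by 0.42 in AFB1_CUR against CON.

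Clathrin coat and scission genes were balanced, with 6 of 12 estimates higher and 6 lower in AFB1 and 0 called. The heavy chain CLTC averaged 49.8 ± 4.29 FPKM in CON and 57.4 ± 6.70 in AFB1, a log2 difference of 0.20 (edgeR adjusted p = 0.957). The endosome list had 4 of 8 estimates higher and 4 lower, with CLCN5 at -0.0019 and the phosphoinositide phosphatase OCRL, the Lowe syndrome gene, at -0.01. SLC9A3, the sodium and proton exchanger NHE3 of the brush border, averaged 63.7 ± 8.78 FPKM in CON and 43.7 ± 20.9 in AFB1, with a log2 difference of -0.53 (edgeR adjusted p = 0.957). SLC9A3 was called lower in 3 of 18 alternatives of AFB1 against CON, 1 of them the fit without AFB1 replicate 5 (-0.96).

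Sorting and recycling genes showed 6 estimates higher and 6 lower of 12 tested, with the recycling GTPase RAB11A at 0.13. In the lysosomal list CTSB, the protease cathepsin B, had an unadjusted p under 0.05 without reaching a 1.5-fold change. It averaged 11.4 ± 1.98 FPKM in CON, 15.2 ± 2.49 in AFB1 and 17.3 ± 4.67 in AFB1_CUR, with log2 differences of 0.40 (edgeR adjusted p = 0.957) and 0.50 (edgeR adjusted p = 0.823) from CON. FCGRT, the neonatal Fc receptor that recycles albumin and IgG, averaged 102 ± 14.8 FPKM in CON and 109 ± 7.76 in AFB1, a log2 difference of 0.10.

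Of megalin's relatives 0 of 9 tested genes of the LDL receptor family were called, but without AFB1 replicate 5 LRP4 was called lower (-0.79, against -0.45 with it) and SORL1 higher (0.62, against 0.39). LRP1 averaged 9.04 ± 2.61 FPKM in CON and 7.52 ± 3.12 in AFB1, far below the level of LRP2. LRP10 averaged 60.4 ± 4.47 FPKM in CON and 60.3 ± 5.1 in AFB1, nearer that level. Proximal tubule transcription factors were lower in 5 of 6 estimates in AFB1, with 0 called and a median of -0.38. HNF4A averaged 57.7 ± 2.74 FPKM in CON and 40.2 ± 13.1 in AFB1 (log2 difference -0.50, edgeR adjusted p = 0.957).

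Proximal tubule markers outside the endocytic route had the same sign as the members in both comparisons with CON. In AFB1 12 of 12 estimates were lower than in CON, with a median of -0.30 and 2 called, where 46.6% of all tested genes had a lower estimate and 1.11% were called lower. These were ANPEP, the brush border aminopeptidase N (-1.03, edgeR adjusted p = 0.957), and SLC7A9, the cystine transporter subunit (-0.84, edgeR adjusted p = 0.957), called in 6 and 3 of the 9 fits that left out 1 library. In AFB1_CUR 12 of 12 were also lower than in CON, with a median of -0.31 and only ANPEP called (-1.14, edgeR adjusted p = 0.823), in each of the 10 fits that left out 1 library as well, where 50.5% of all tested genes had a lower estimate and 0.577% were called lower. In AFB1_CUR against AFB1 the markers went both ways, with 5 of 12 estimates higher, 7 lower, a median of -0.03 and 0 called. Of the other kidney cell lists, macrophage markers were higher in 4 of 4 estimates in AFB1 against CON (median 0.71, 0 called) and in 4 of 4 in AFB1_CUR against CON (median 0.87), where CD68, a lysosomal protein of macrophages, was called (1.95, edgeR adjusted p = 0.823). That call rested on few libraries: CD68 stood at 9.10 FPKM in AFB1_CUR replicate 2 and at 0.561 to 2.24 in the other 4, against 0.147 to 1.10 in CON. Without AFB1_CUR replicate 2 the CD68 difference was 0.73 and not called, and the call held in 4 of the 10 fits that left out 1 library. In AFB1, CD68 stood at 5.63 FPKM in replicate 2 and at 0.252 to 1.01 in replicates 3 to 5. The CD68 difference of AFB1 from CON ran from 0.23 to 1.95 over the fits that left out 1 library. Stroma markers were higher in 5 of 5 estimates in AFB1_CUR against AFB1 (median 0.74, 0 called), in 4 of 5 in AFB1_CUR against CON (median 0.62, 0 called), and in 1 of 5 in AFB1 against CON (median -0.12). Their mean log2(FPKM + 1) was 6.20 in AFB1_CUR replicate 2 and 4.34 to 5.00 in the rest of that group. Loop and distal, podocyte and endothelium markers had medians of 0.06, 0.04 and 0.05 in AFB1 against CON, with 0 called. Their part in the differences of the members was not tested. The fit with the proximal tubule score cannot decide it, since it takes out a shared difference whatever its origin.

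**Figure D5:**
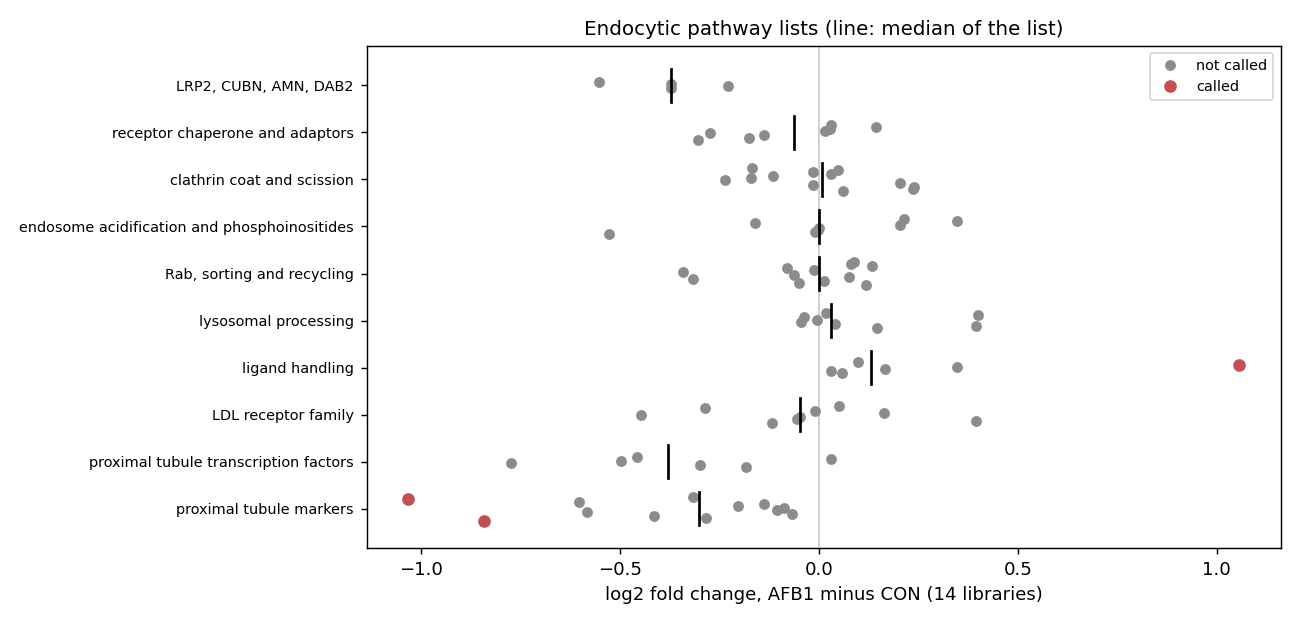
Log2 fold change of AFB1 minus CON by edgeR over 14 libraries for the 4 members, the 8 endocytic lists and the proximal tubule markers, 1 point per gene, with a line at each median and red points for called genes. The members (-0.23 to -0.55) and the tubule markers (median -0.30) lie left of 0, most endocytic lists centre near 0, and GC is the red point at 1.06.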

How the data were processed

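The data were 15 mRNA libraries labelled as kidney, of which AFB1 replicate 1 had a liver-like marker profile, made with dUTP strand marking and sequenced in pairs. Per the submitters' processing notes and the study's methods, the authors used cutadapt 1.9, HISAT2 2.2.1, StringTie 2.1.6, DESeq2 and edgeR; which program counted reads per gene, and with which strand setting, is not given in the sources. The authors deposited raw read counts and FPKM per gene, and the FPKM values are already divided by length and depth. Groups came from sample titles.

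Counts were tested with edgeR 4.0.16 (R 4.3.3, TMM, quasi-likelihood, 3 groups sharing 1 spread) in 14 libraries, with AFB1 replicate 1 left out, over 13162 genes with at least 1 FPKM in at least 5 libraries. Calls needed a fold above 1.5 and an unadjusted p under 0.05. Benjamini-Hochberg values cover all tested genes. DESeq2 1.42.0, limma 3.58.1 on log2(FPKM + 1) and log2(FPKM + 0.1), and the other alternatives are described at the end. The fits were tested on simulated data in which every gene had the same spread. The larger spread of the members was not simulated, so that test does not show how the fits perform for them. Library totals, 50255295 to 68747047 counts, limit precision less than the spread between animals. No 2 libraries of a group agreed within sampling noise.

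Named genes were the 4 members, 5 most similar genes each, called list genes, fixed role genes and ALB, UMOD and SLC34A1. APPL1, CD68, CTSB, LRP10, SLC5A2, SORL1, ANPEP and SLC7A9 were named after their values were seen. Members and lists were chosen with earlier results of these data known. List symbols without a match in the table were not analysed here. Some genes that this rule names are not reported here. No sequences are printed. Replicate numbers were not found to pair animals.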

Additional observations from a re-analysis of the deposited data

Results flagged for a closer look

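In the CON group, LRP2 in replicate 5 (134 FPKM) lay far above the other 4 libraries (52.4 to 68.1 FPKM): its gap to the nearest library was 0.808 of the whole range of the group. In AFB1 without replicate 1, CUBN in replicate 5 (123 FPKM) lay far above the other 3 libraries (30.6 to 44.8 FPKM), with a gap of 0.847 of the range. These were 2 of 16 groups of values tested, and chance alone flags about 1 in 20.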

How the results depend on the processing

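Of the 220 alternative values of the members' log2 fold changes, 191 kept their direction and their side of the call, 7 became called and 22 changed sign without being called. In AFB1 minus CON, AMN became called with all 15 libraries (-0.60) and with limma on log2(FPKM + 1) and log2(FPKM + 0.1) (-0.61 for both). With DESeq2 (-0.55), without the TMM factor (-0.57) and with the replicate block (-0.57) AMN passed the limit on the unadjusted p there but not that on fold. In AFB1_CUR minus AFB1, the DAB2 estimate changed sign with all 15 libraries (0.30), with either limma fit (0.12 for both), without the TMM factor (0.063) and with the replicate block (0.0225). With the proximal tubule score as a covariate, added after the data were seen, the sign changed in AFB1 minus CON for LRP2 (0.23), CUBN (0.35) and DAB2 (0.11), in AFB1_CUR minus AFB1 for CUBN (-0.11), and in AFB1_CUR minus CON for LRP2 (0.23), CUBN (0.24) and DAB2 (0.0049). Leaving out 1 library at a time gave, in AFB1 minus CON, -0.95 to -0.0262 for LRP2, -1.16 to -0.0571 for CUBN, -0.83 to -0.37 for AMN and -0.62 to -0.0284 for DAB2. In AFB1_CUR minus AFB1 it gave -0.10 to 0.92 for CUBN and -0.21 to 0.38 for DAB2, and in AFB1_CUR minus CON -0.35 to 0.18 for LRP2 and -0.48 to 0.0706 for CUBN. The lowest values for AFB1 minus CON, and the highest for AFB1_CUR minus AFB1, came from the fit without AFB1 replicate 5. The causes of these changes were not tested.

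Of the 69 endocytic list genes, 1 was called in AFB1 minus CON as reported, against 1.76% of all genes. With all 15 libraries, which adds the liver-like AFB1 replicate 1, 4 were called, all higher, against 4.74% of all genes. With limma on log2(FPKM + 1) 2 were called, against 0.798%. The proximal tubule score as a covariate gave 4, where 400 of 13162 genes were called. Leaving out 1 library gave 0 to 6, the 6 without AFB1 replicate 5, where 3.48% of all genes were called. In AFB1_CUR minus AFB1 the list genes called numbered 0 as reported, where 123 of all 13162 genes were called. They numbered 3 with all 15 libraries (517 of all genes), 1 with DESeq2 (153) and 2 with the score as a covariate (218). Leaving out 1 library gave 0 to 3, where 125 to 271 of all genes were called. In AFB1_CUR minus CON they numbered 0 as reported (214 of all genes) and 1 without the TMM factor (246).

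Replicate numbers were not found to pair the animals: over 13 same-numbered pairs the correlation of deviations from group means ran from -0.279 to 0.552 with a median of 0.074, 5 were over 0.1, and 4 of 14 libraries correlated best with their own number. The 5 were the replicate 2 libraries with each other (0.382, 0.373 and 0.552), CON and AFB1 replicate 5 (0.368), and CON and AFB1_CUR replicate 4 (0.12). Whether some numbers shared a batch was not tested. With the replicate block 228, 150 and 282 genes were called in AFB1 minus CON, AFB1_CUR minus AFB1 and AFB1_CUR minus CON, against 232, 123 and 214 without it, and AMN in AFB1 minus CON stood at -0.57 and was not called. The block changed no call of a member, and among the endocytic list genes HNF4G was called in AFB1 minus CON in place of GC.

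With all 15 libraries, FPKM without a log, Spearman's rho, group means removed or 1 library left out, all 108 correlations between members kept their direction and side of the threshold, but without the 2 farthest libraries LRP2 and AMN (r = 0.508) and AMN and DAB2 (r = 0.519) did not. For the log2 ratios 168 of 204 alternatives kept direction and side. With all 15 libraries the AFB1 minus CON difference was -0.17 for LRP2 to CUBN, -2.20 for LRP2 to AMN, -2.03 for CUBN to AMN and 0.57 for AMN to DAB2, and the AFB1_CUR minus AFB1 difference was -0.71 for AMN to DAB2. As differences of medians, LRP2 to CUBN was -0.0039 and LRP2 to AMN -0.0044 in AFB1_CUR minus AFB1, and CUBN to DAB2 was 0.22 in AFB1_CUR minus CON. Leaving out 1 library gave, in AFB1 minus CON, -0.0455 to 0.15 for LRP2 to CUBN, -0.11 to 0.40 for LRP2 to AMN, -0.43 to 0.0509 for LRP2 to DAB2 and -0.18 to 0.34 for CUBN to AMN. In AFB1_CUR minus AFB1 it gave -0.0329 to 0.17 for LRP2 to CUBN, -0.17 to 0.34 for LRP2 to AMN, -0.24 to 0.29 for CUBN to AMN and -0.0118 to 0.38 for CUBN to DAB2. In AFB1_CUR minus CON it gave -0.0266 to 0.30 for LRP2 to DAB2, -0.0788 to 0.29 for CUBN to AMN and -0.23 to 0.17 for CUBN to DAB2.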
